A study of Mus musculus with 6 samples.

Results

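Transcripts of 9 genes of the response to low oxygen were followed in whole small intestine of mice whose Lgr5-positive cells had been ablated. The genes are Hif1a, Epas1, Egln3, Vegfa, Adm, Car9, Ndrg1, Bnip3 and Ankrd37. They were picked by gene symbol from the 55487 genes of the deposited expression table, and each symbol matched 1 gene. The mice of the DTR group carried Lgr5-2A-DTR, in which a diphtheria toxin receptor is expressed from the locus of Lgr5, the receptor gene that marks crypt base stem cells. The WT group was wild type. Both groups were adult C57BL/6 mice over 8 weeks of age, and both were given diphtheria toxin at 20 µg per kg daily for 4 days and taken 6 h after the final dose. The receptor follows Lgr5 in every cell that expresses it, and the labels give neither its copy number nor which animals shared a litter. RNA-seq libraries numbered 3 per group. The comparison of DTR with WT asks how the tissue's transcripts differ after ablation of Lgr5-positive cells.

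Cells sense oxygen through hydroxylase enzymes that mark the alpha subunits of the hypoxia-inducible factors (HIF) for destruction while oxygen is plentiful. When oxygen is scarce the alpha subunits persist, pair with the partner ARNT, bind short DNA motifs called hypoxia response elements and raise genes of glucose use, blood vessel growth, pH control and survival. In the small intestine the mucosa lies next to a lumen with little oxygen, and the alpha subunit encoded by Epas1 is known to drive iron absorption in enterocytes. Because the alpha subunits are controlled largely at the protein level, their transcripts do not measure factor activity. Several of these genes are also known to respond to other stresses and hormones.

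The core of the hypoxia response element was sought in the promoters of the 9 genes. Upstream sequence was taken from RefSeq (build GRCm38.p6, the assembly called mm10), as the 250 bases before each RefSeq transcription start. Of the 9 genes 7 had an entry, and Epas1 and Ndrg1 had none. The motifs searched were ACGTG and GCGTG on both strands. A palindromic stretch such as CACGTG counts on each strand, and matches may overlap. All 7 genes had at least 1 match in an entry, against 59.2% of the 10534 tested genes with an entry, and 6 of the 7 had ACGTG, against 24.2%. These matches describe the letters in the window and not binding. As the genes were picked as genes of the response to low oxygen, a share above the background is not independent evidence. Shown are the 4 genes with an entry whose DTR libraries all lay above all WT libraries (of these Car9 and Adm passed the test below, while Ankrd37 and Bnip3 did not), 5′ to 3′ on the gene's strand, with every motif match in capitals. Car9 lies at chr4:43506776-43507025 (plus strand), Adm at chr7:110627407-110627656 (plus strand), Ankrd37 at chr8:45999851-46000100 (minus strand) and Bnip3 at chr7:138909507-138909756 (minus strand).
Car9: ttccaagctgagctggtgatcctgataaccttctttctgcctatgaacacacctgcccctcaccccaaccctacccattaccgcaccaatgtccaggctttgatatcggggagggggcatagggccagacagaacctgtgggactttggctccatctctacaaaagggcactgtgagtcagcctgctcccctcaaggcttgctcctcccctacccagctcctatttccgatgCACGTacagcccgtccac
Adm: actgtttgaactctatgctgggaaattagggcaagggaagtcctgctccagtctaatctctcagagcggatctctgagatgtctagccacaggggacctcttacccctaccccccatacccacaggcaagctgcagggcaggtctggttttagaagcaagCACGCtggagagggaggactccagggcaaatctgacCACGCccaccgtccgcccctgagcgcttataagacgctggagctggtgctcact
Ankrd37: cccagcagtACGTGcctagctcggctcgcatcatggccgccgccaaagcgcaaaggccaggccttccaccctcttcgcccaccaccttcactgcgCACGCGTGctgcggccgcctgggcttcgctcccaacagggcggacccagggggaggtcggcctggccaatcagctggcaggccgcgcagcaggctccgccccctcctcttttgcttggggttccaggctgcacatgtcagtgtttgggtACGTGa
Bnip3: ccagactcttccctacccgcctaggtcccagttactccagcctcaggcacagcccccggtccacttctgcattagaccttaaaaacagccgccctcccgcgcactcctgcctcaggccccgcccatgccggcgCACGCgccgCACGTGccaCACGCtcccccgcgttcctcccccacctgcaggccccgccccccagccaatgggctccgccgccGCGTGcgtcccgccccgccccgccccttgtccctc
Car9 has a single match, an ACGTG on the opposite strand whose first base in the printed strand is at -18 from the start. Adm has GCGTG on the opposite strand at -90 and -54. Ankrd37 has 4 matches, the one nearest to the start being ACGTG at -6. Bnip3 has 5 matches, of which the CACGTG palindrome starting at -108 gives 2. Hif1a itself has 3 matches and Egln3 has 1. Vegfa has 2 entries. The one farther upstream, before the annotated gene, has no match. The other has 2 matches and lies inside the gene (chr17:46025164-46025413, minus strand). Vegfa therefore enters both counts above only through a window within its own gene. The same holds for Hif1a and Ankrd37. The window of Hif1a (chr12:73907617-73907866, plus strand) lies inside its annotated gene at 73901375 to 73947530. The window of Ankrd37 lies inside its annotated gene at 45996902 to 46005707.

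The libraries held 61404574 to 76596766 reads in genes, and the 9 genes had between 124 (Adm) and 20142 (Ndrg1) reads in any library. Lgr5, the targeted locus, had 22, 0 and 34 reads in DTR replicates 1, 2 and 3, against 315, 254 and 229 in WT replicates 1, 2 and 3. The DTR libraries also had 22432 to 24279 reads of the female-specific RNA Xist, against 16 to 38 in WT libraries, and 0 reads of the Y-linked Ddx3y, against 2688 to 3668 in WT libraries. Genotype and this sex pattern cannot be told apart in any result below. Correlations across genes were 0.970 to 0.973 among WT libraries and 0.920 to 0.939 among DTR libraries, lowest between DTR replicates 1 and 2. DTR replicate 1 correlated at 0.921 to 0.928 with the WT libraries, against 0.839 to 0.886 for the other DTR libraries. Intestinal epithelial markers were abundant in every library, with summed levels of 11377 to 13606 RPKM (reads divided by gene length and library size) in DTR and 14428 to 17952 RPKM in WT libraries. In whole tissue, fewer cells of a type and less RNA per cell cannot be told apart.

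Ablated intestines had higher transcripts of Ndrg1, Adm, Car9 and Epas1, by 2.05-fold (Epas1) to 6.05-fold (Adm) of the mean level. Ankrd37 was as far apart on average but varied most among DTR libraries and missed the threshold, and Egln3, Bnip3, Hif1a and Vegfa did not pass. Counted in limma at an adjusted p of 0.05, 4 of the 9 genes rose and none fell. Of all 15563 genes tested, 18.3% were called, with 9.54% higher and 8.74% lower. Without WT replicate 1, 2 or 3, only 76, 79 and 101 of all tested genes were higher. Calls reported below as lost without a WT library stand beside that background. At an unadjusted p of 0.05, 6 of the 9 were higher, against 20.3% of all tested genes. The median log2 difference of the 9 was 1.04, against 0.031 over all tested genes. In 6 of the 9 every DTR library lay above every WT library, a pattern seen in 25.1% of tested genes, and in none did every DTR library lie below (22.6% of tested genes). The plot of levels by library shows this for each gene.

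**Figure D1:**
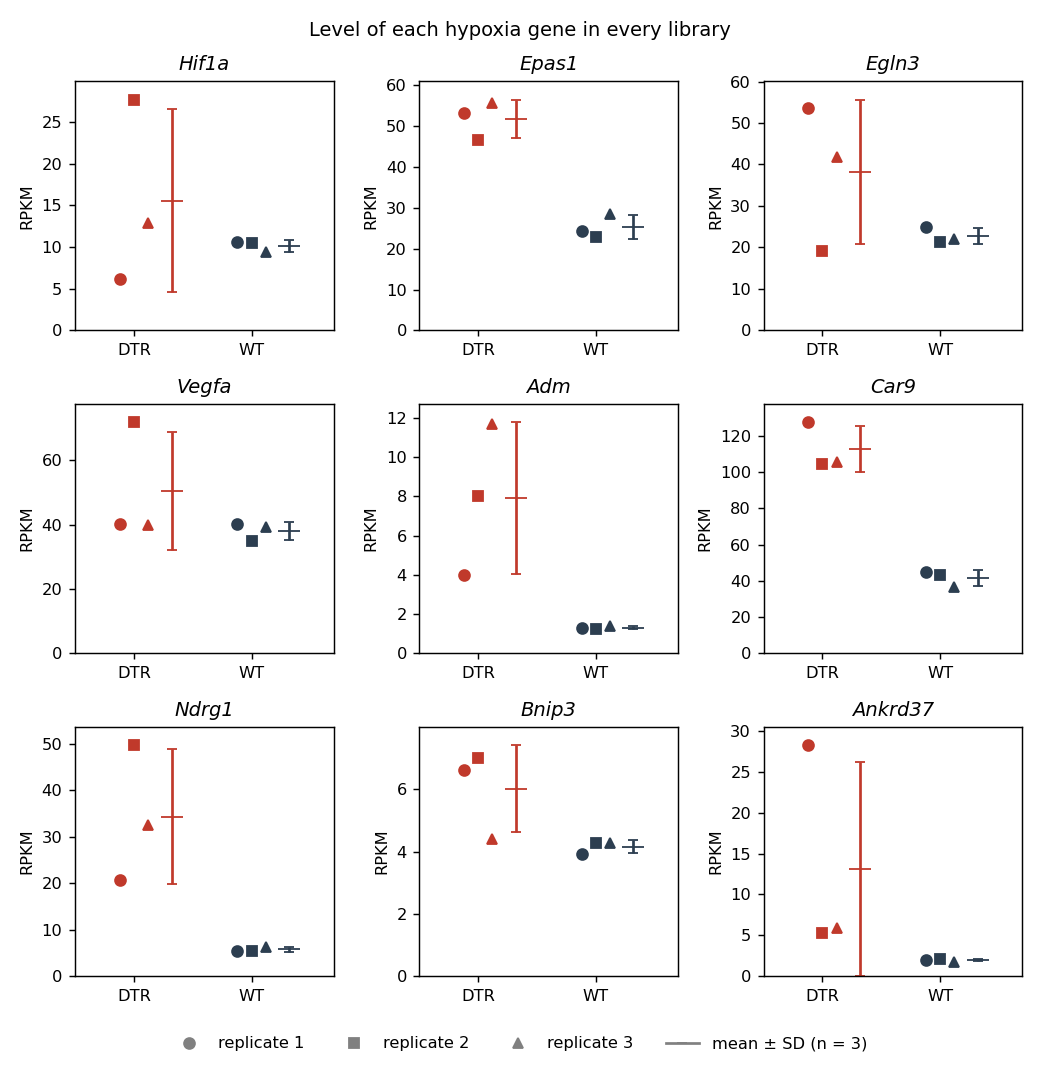
Level of each gene in RPKM (linear axis) in the 3 DTR (red) and 3 WT (dark blue) libraries, with a symbol for each replicate and the mean ± SD beside them. Adm, Car9, Ndrg1, Epas1, Bnip3 and Ankrd37 have all DTR libraries above all WT libraries, while Hif1a, Egln3 and Vegfa overlap.

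The transcripts of the factor subunits differed in how evenly they stood in DTR. Epas1, which encodes HIF-2 alpha (ENSMUSG00000024140.10, chromosome 17, 86753700 to 86833410), had 53.3, 46.5 and 55.6 RPKM in DTR replicates 1, 2 and 3, against 24.4, 22.9 and 28.6 RPKM in WT replicates 1, 2 and 3. The groups did not overlap, and the lowest DTR library stood well above the highest WT library. Epas1 averaged 51.8 ± 4.72 RPKM in DTR and 25.3 ± 2.95 RPKM in WT (SD, n = 3 each; log2 difference 1.04, SE 0.13; limma adjusted p = 0.0111). Leaving out WT replicate 1 ended the call (adjusted p = 0.0653, log2 difference 1.01), as did leaving out WT replicate 2 (adjusted p = 0.0622, log2 difference 0.97).

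Hif1a, which encodes HIF-1 alpha (ENSMUSG00000021109.13, chromosome 12, 73901375 to 73947530), had 6.16, 27.7 and 12.8 RPKM in DTR replicates 1, 2 and 3, against 10.6, 10.5 and 9.34 RPKM in WT replicates 1, 2 and 3. DTR replicate 1 lay below every WT library and the other DTR libraries lay above them, so the groups overlapped. The log2 difference of 0.36 (SE 0.50) did not pass in limma (adjusted p = 0.618), and it was 0.90 without DTR replicate 1 and -0.19 without DTR replicate 2. Gm15283, annotated antisense to Hif1a with overlapping exons, had 2.38 to 3.26 RPKM in DTR and 0.0711 to 0.276 RPKM in WT libraries. Whether counting used the strand is not given in the sources used here. Reads of a gene and its antisense partner therefore cannot be told apart.

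Within a library the ratio of Epas1 to Hif1a, both per gene length, was 8.64, 1.68 and 4.33 in DTR replicates 1, 2 and 3, against 2.30, 2.19 and 3.06 in WT replicates 1, 2 and 3. The ratio was above every WT value in DTR replicates 1 and 3 and below every WT value in DTR replicate 2. The log2 ratio differed by 0.67 (two-sided exact permutation test, p = 0.4, n = 3 each, where 0.1 is the smallest possible). It was 0.11 without DTR replicate 1 and 1.30 without DTR replicate 2.

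Egln3 encodes an oxygen-dependent prolyl hydroxylase that acts on the HIF alpha subunits and is itself hypoxia-induced, a feedback arm (ENSMUSG00000035105.5, chromosome 12, 54178981 to 54203860). It had 53.6, 19.3 and 41.8 RPKM in DTR replicates 1, 2 and 3, against 24.9, 21.4 and 22.0 RPKM in WT replicates 1, 2 and 3. DTR replicates 1 and 3 lay above all WT libraries and DTR replicate 2 below them. The log2 difference of 0.63 (SE 0.37) did not pass in limma (adjusted p = 0.242). It was 0.32 without DTR replicate 1 (adjusted p = 0.485), and 1.06 without DTR replicate 2, when it passed (adjusted p = 0.0177). Egln1, the main HIF prolyl hydroxylase in most tissues, rose evenly, with 18.1, 20.3 and 21.3 RPKM in DTR replicates 1, 2 and 3, against 8.60, 7.12 and 7.58 RPKM in WT replicates 1, 2 and 3 (log2 difference 1.36, SE 0.13; limma adjusted p = 0.00547). Its call held in all 17 other settings. The ratio of Egln3 to Egln1, per gene length, was 2.97, 0.949 and 1.96 in DTR replicates 1, 2 and 3, against 2.89, 3.00 and 2.90 in WT replicates 1, 2 and 3. DTR replicate 1 lay within the WT range and the other DTR libraries below it. The log2 ratio differed by -0.73 (two-sided exact permutation test, p = 0.3, n = 3 each). It differed by -1.10 without DTR replicate 1 and by -0.28 without DTR replicate 2.

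Of the secreted signals, the vasodilator peptide gene rose and the vessel growth factor gene did not pass. Adm, the adrenomedullin precursor (ENSMUSG00000030790.15, chromosome 7, 110627661 to 110629820), had 4.02, 8.03 and 11.7 RPKM in DTR replicates 1, 2 and 3, against 1.31, 1.25 and 1.37 RPKM in WT replicates 1, 2 and 3. Every DTR library was far above the narrow WT range, and DTR replicate 1 was the lowest of them. Adm averaged 7.92 ± 3.85 RPKM in DTR and 1.31 ± 0.0586 RPKM in WT (SD, n = 3 each; log2 difference 2.47, SE 0.38; limma adjusted p = 0.0155). The call was lost without any one of the WT libraries (adjusted p = 0.0681 to 0.0713), with log2 differences of 2.43 to 2.50.

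Vegfa, the growth factor for blood vessels (ENSMUSG00000023951.17, chromosome 17, 46016993 to 46032369), had 40.1, 71.8 and 39.9 RPKM in DTR replicates 1, 2 and 3, against 40.2, 35.0 and 39.2 RPKM in WT replicates 1, 2 and 3. DTR replicate 2 alone stood above the WT libraries, and the other DTR libraries lay near the top of the WT range. The log2 difference of 0.35 (SE 0.24) did not pass in limma (adjusted p = 0.315) and was 0.073 without DTR replicate 2.

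Car9 encodes a cell-surface carbonic anhydrase that acidifies the outside of cells, a widely used hypoxia marker (ENSMUSG00000028463.14, chromosome 4, 43506966 to 43513729). It had 127, 105 and 106 RPKM in DTR replicates 1, 2 and 3, against 44.8, 43.0 and 36.4 RPKM in WT replicates 1, 2 and 3. The groups were far apart and both were tight. Car9 averaged 113 ± 12.8 RPKM in DTR and 41.4 ± 4.40 RPKM in WT (SD, n = 3 each; log2 difference 1.44, SE 0.14; limma adjusted p = 0.00553). It was the one gene of the 9 whose call held in all 17 other settings, with log2 differences of 1.35 to 1.5 and adjusted p of at most 0.0409. The antisense gene Gm12454, with overlapping exons, stood at 1.89 to 3.30 RPKM in DTR and 4.70 to 5.16 RPKM in WT libraries.

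Ndrg1 encodes a stress-induced cytoplasmic protein linked to differentiation (ENSMUSG00000005125.13, chromosome 15, 66929318 to 66969640). It had 20.7, 49.6 and 32.4 RPKM in DTR replicates 1, 2 and 3, against 5.49, 5.52 and 6.34 RPKM in WT replicates 1, 2 and 3. All DTR libraries lay far above WT, with DTR replicate 2 highest. Ndrg1 averaged 34.3 ± 14.5 RPKM in DTR and 5.79 ± 0.484 RPKM in WT (SD, n = 3 each; log2 difference 2.48, SE 0.31; limma adjusted p = 0.00957). Of all tested genes, 1.03% had a larger log2 difference. It no longer passed without WT replicate 1 (adjusted p = 0.0556, log2 difference 2.44) or without WT replicate 2 (adjusted p = 0.0551, log2 difference 2.45).

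Bnip3 encodes a mitochondrial outer membrane protein that promotes the removal of mitochondria (ENSMUSG00000078566.8, chromosome 7, 138890836 to 138909519). It had 6.62, 7.00 and 4.41 RPKM in DTR replicates 1, 2 and 3, against 3.92, 4.28 and 4.28 RPKM in WT replicates 1, 2 and 3. DTR replicate 3 exceeded the WT libraries by a small margin and the other DTR libraries by more. The log2 difference of 0.50 (SE 0.20) did not pass in limma (adjusted p = 0.121). It was 0.71 without DTR replicate 3 and then passed (adjusted p = 0.0455).

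Ankrd37 encodes an ankyrin repeat protein described as a HIF-1 target (ENSMUSG00000050914.16, chromosome 8, 45996902 to 46005707). It had 28.3, 5.20 and 5.82 RPKM in DTR replicates 1, 2 and 3, against 1.94, 2.05 and 1.74 RPKM in WT replicates 1, 2 and 3. Every DTR library lay above WT, and DTR replicate 1 stood apart from the other DTR libraries, 5.44-fold above the lowest. The log2 difference of 2.31 (SE 0.63) lay just outside the threshold in limma (adjusted p = 0.0504) and passed in 8 of 17 other settings. Without DTR replicate 1 it was 1.53 and passed (adjusted p = 0.00367). Exons of Ankrd37 overlap those of Ufsp2 on the other strand, which had 8.21, 3.67 and 5.79 RPKM in DTR replicates 1, 2 and 3 and 8.19, 8.99 and 9.18 RPKM in WT replicates 1, 2 and 3.

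**Figure D2:**
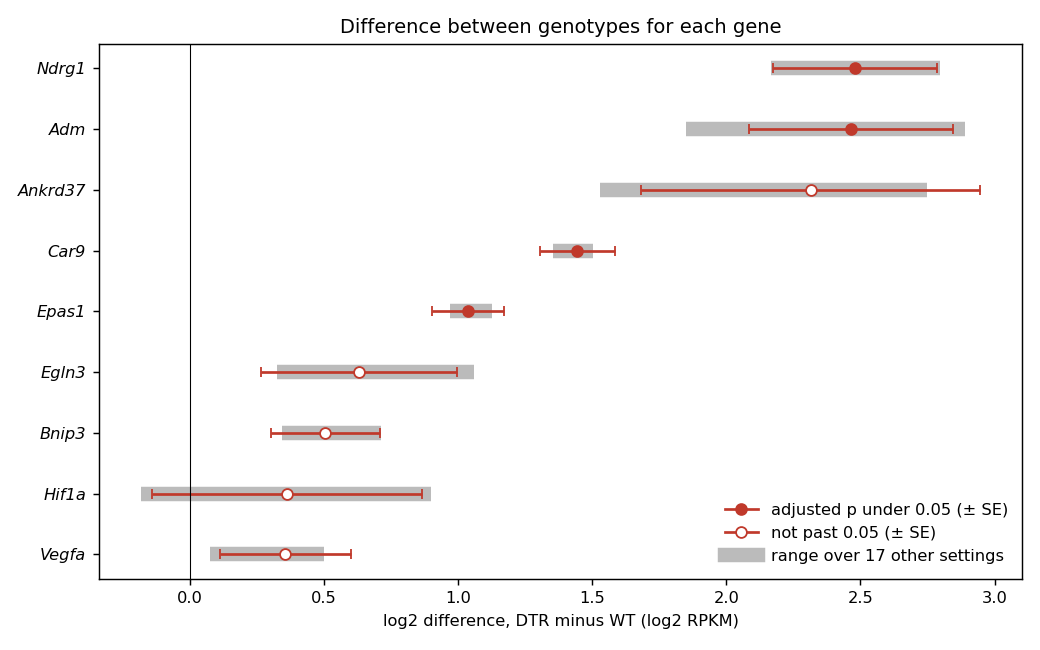
Log2 difference of each gene, DTR minus WT, in log2 RPKM, with its SE (bars), filled points for an adjusted p under 0.05 and grey bands for the range over 17 other settings. Ndrg1, Adm, Car9 and Epas1 are filled, Ankrd37 at 2.31 is open, and the band of Hif1a extends below 0, to -0.19.

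Per gene length, Car9 was the most abundant of the 9 in both groups. In DTR it stood above every other gene in every library, followed by Epas1, Vegfa, Egln3, Ndrg1, Hif1a, Ankrd37, Adm and Bnip3, and every neighbouring pair after Car9 overlapped in its library values. In WT the order was Car9, Vegfa, Epas1, Egln3, Hif1a, Ndrg1, Bnip3, Ankrd37 and Adm. There the libraries of Car9 and Vegfa overlapped, as did those of Epas1 and Egln3, while the other neighbours were apart.

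The 3 DTR libraries did not rank the genes alike. DTR replicate 2 had the highest DTR level of Hif1a, Vegfa, Ndrg1 and Bnip3 and the lowest of Epas1, Egln3, Car9 and Ankrd37. DTR replicate 1 had the highest level of Egln3, Car9 and Ankrd37 and the lowest of Hif1a, Adm and Ndrg1. For Epas1 and Car9 the highest DTR library was 1.20-fold and 1.22-fold above the lowest, against 4.49-fold for Hif1a. The log2 range within DTR exceeded that within WT for 7 of the 9 genes, and for 81.7% of all tested genes.

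**Figure D3:**
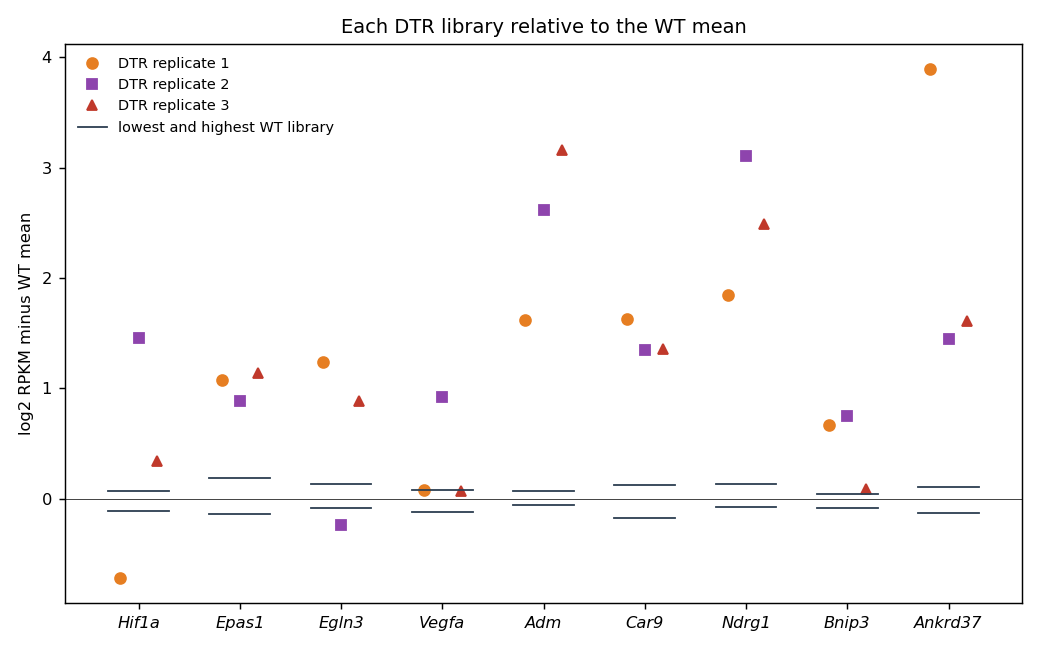
Log2 RPKM of each DTR library minus the WT mean for the 9 genes, with horizontal lines at the lowest and highest WT library. Ndrg1, Adm, Car9, Epas1 and Ankrd37 sit above the WT lines in all 3 libraries, as does Bnip3, by a small margin in DTR replicate 3. Hif1a has DTR replicate 2 at 1.45 and DTR replicate 1 at -0.71, while Egln3 has them the other way round, at -0.24 and 1.24.

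Genes whose log2 RPKM ran most like each of the 9 over the 6 libraries were sought among 10213 genes whose mean log2 RPKM exceeded 0. For Hif1a these were Osbpl2 (Pearson r = 0.994) and Dedd2 (0.994), and for Epas1 Alg10b (0.996) and Tnks (0.995). They were Nadk2 for Egln3 (0.997), Cpeb2 for Vegfa (0.994), the kinase gene Akt1 for Adm (0.9999), Polr2f for Car9 (0.995), Ilrun for Ndrg1 (0.999), Mknk2 for Bnip3 (0.996) and Rpp14 for Ankrd37 (0.996). With 6 libraries in 2 groups and this many candidates such values describe the best match only, and the points share genotype and sex pattern.

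The rest of the pathway moved in part. Over 4 lists of pathway genes, 17 of 68 distinct tested genes rose and none fell, with a median log2 difference of 0.24. Without WT replicate 1, 2 or 3 the count of higher genes was 6, 5 and 5, beside 76, 79 and 101 of all tested genes. In these lists 1 gene was lower without DTR replicate 1 and 2 without DTR replicate 2. Among HIF partners and oxygen sensing genes 2 of 15 rose (median 0.18), Egln1 and Hif3a, a share near the 9.54% of all tested genes. Hif3a encodes a further alpha subunit that can damp the others, and had 2.29, 1.32 and 0.917 RPKM in DTR replicates 1, 2 and 3, against 0.0368, 0.0736 and 0.0556 RPKM in WT replicates 1, 2 and 3 (log2 difference 4.72, SE 0.47; limma adjusted p = 0.00619). Every DTR library was above WT, at a low level. On a log2(RPKM + 1) scale the Hif3a difference was 1.21 and still passed. Elob, a part of the ligase that destroys HIF alpha subunits, differed by 0.48 (SE 0.18) and the chaperone gene Hsp90ab1 by 0.70 (SE 0.29), and neither passed.

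Of 20 tested genes of glucose uptake and glycolysis 3 rose and none fell, beside 9.54% of all tested genes higher. Their median log2 difference was 0.048, and -0.074 without DTR replicate 3. The phosphoglycerate kinase gene Pgk1 averaged 251 ± 23.4 RPKM in DTR and 148 ± 3.88 RPKM in WT (SD, n = 3 each; log2 difference 0.76, SE 0.12; limma adjusted p = 0.0164). The aldolase gene Aldoa, the more abundant of 2 entries with that symbol, rose by a log2 difference of 1.14 (SE 0.18) and the glucose transporter gene Slc2a1 by 1.73 (SE 0.40). Each of these 3 calls was lost when any one WT library was left out. That of Aldoa was also lost without DTR replicate 3, that of Slc2a1 without DTR replicate 2 and that of Pgk1 with the replicate block. The hexokinase gene Hk2 differed by 1.14 (SE 0.36) and did not pass (adjusted p = 0.0688).

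Other genes reported as hypoxia-induced gave the largest count among the 4 pathway lists. Of 30 tested 11 rose and none fell, beside 9.54% of all tested genes higher, and the median log2 difference was 0.46. Over other settings that median ran from 0.32, on a log2(RPKM + 1) scale, to 0.62, without DTR replicate 2. Without any one WT library 4 rose. The histone demethylase gene Kdm3a rose by a log2 difference of 1.51 (SE 0.14) and the transcriptional repressor gene Bhlhe40 by 2.02 (SE 0.22), and the calls of Kdm3a and Bhlhe40 held in all 17 other settings. Also higher, and named after their values were seen, were Egln1, Lox, Higd1a, Ddit4, Edn1, Vldlr, Mif and Hmox1. Epo had 0 reads in every library.

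Among iron genes that enterocytes induce through HIF-2 alpha, the genes of uptake from the lumen rose and the others did not pass. Slc11a2, the iron importer of the brush border, had 971, 175 and 826 RPKM in DTR replicates 1, 2 and 3, against 51.1, 26.9 and 40.6 RPKM in WT replicates 1, 2 and 3 (log2 difference 3.77, SE 0.66; limma adjusted p = 0.0199). Its partner Cybrd1, a ferric reductase, had 435, 142 and 242 RPKM in DTR replicates 1, 2 and 3, against 37.4, 23.2 and 13.7 RPKM in WT replicates 1, 2 and 3 (log2 difference 3.43, SE 0.50; limma adjusted p = 0.0140). The call of Slc11a2 was lost without any one WT library (adjusted p = 0.0711 to 0.0819) or without DTR replicate 3 (0.0612), and that of Cybrd1 without WT replicate 2 (0.0647) or WT replicate 3 (0.0607). For both genes DTR replicate 1 was highest and DTR replicate 2 lowest, as for Egln3, Car9 and Ankrd37. The exporter gene Slc40a1 differed by -0.54 (SE 0.39), its ferroxidase partner Heph by 0.089 (SE 0.16) and the transferrin receptor gene Tfrc by 0.54 (SE 0.19).

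**Figure D4:**
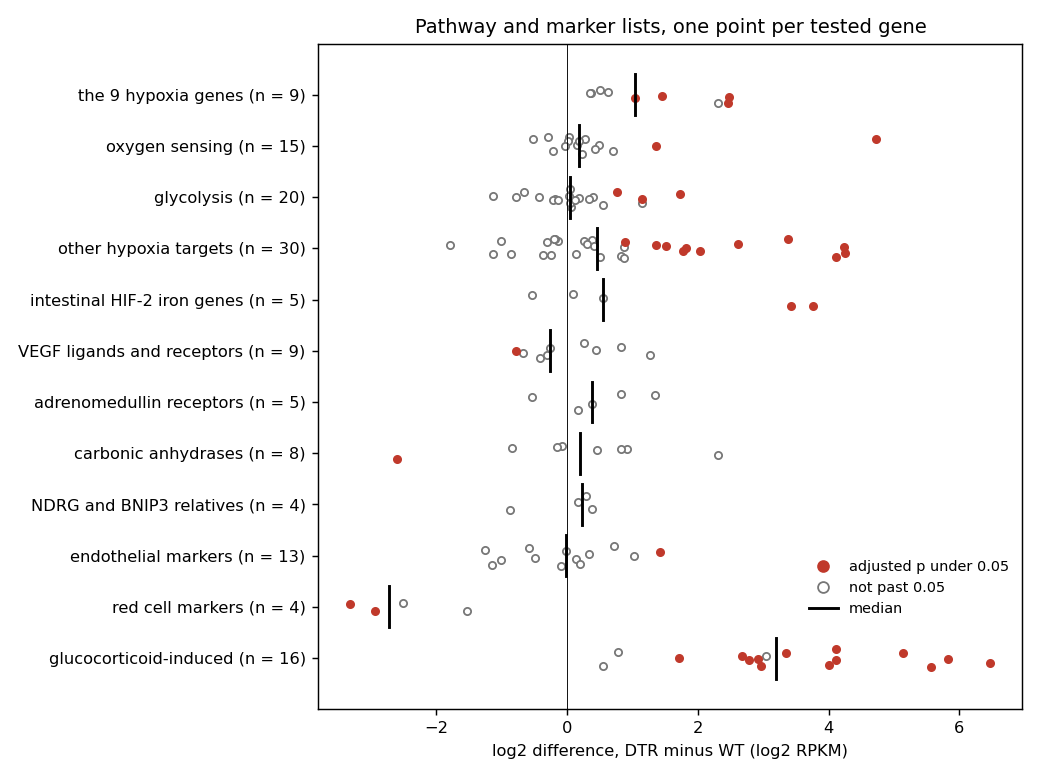
Log2 difference, DTR minus WT, in log2 RPKM for each tested gene of the lists (points, filled where the adjusted p is under 0.05) with each list's median (vertical bar). The 9 hypoxia genes have a median of 1.04, the glycolysis list of 0.048 and the glucocorticoid-induced list of 3.20.

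Of 9 other VEGF ligands and receptors Vegfb fell (log2 difference -0.78, SE 0.17, limma adjusted p = 0.0313) and none rose, with a median of -0.26. Of all tested genes 8.74% were lower. Among these VEGF genes only Vegfb had a mean log2 RPKM above 0. None of the 5 adrenomedullin receptor genes passed (median 0.39), with Ramp1 at 0.82 (SE 0.30), Ramp3 at 1.34 (SE 0.60) and the receptor gene Calcrl at -0.54 (SE 0.32). Of 8 tested carbonic anhydrases other than Car9 the brush border enzyme gene Car4 fell, to 4.87 ± 2.28 RPKM in DTR, against 27.5 ± 3.11 RPKM in WT (SD, n = 3 each; log2 difference -2.60, SE 0.35; limma adjusted p = 0.0118). The calls of Vegfb and Car4 were lost when any one WT library was left out. That of Vegfb was also lost without DTR replicate 3 (limma adjusted p = 0.0721) and with the replicate block (limma adjusted p = 0.0719). None of the other carbonic anhydrases passed, and Car1 and Car10 had 0 reads in every library. None of Ndrg2, Ndrg3, Ndrg4 and Bnip3l passed (median 0.23, and -0.033 without DTR replicate 2), with Ndrg3 at -0.87 (SE 0.27) and Bnip3l at 0.38 (SE 0.13).

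Markers of other cells and of hormone exposure moved beside these results, and their part in them was not tested. Their counts stand beside 9.54% higher and 8.74% lower of all tested genes. Of 16 genes reported as glucocorticoid-induced 13 rose and none fell (median 3.20), and without any one WT library 6 to 8 rose. The smallest p-values were those of Zbtb16, Angptl4, Fkbp5 and Sgk1 with log2 differences of 6.47, 3.35, 5.57 and 2.96. The summed level of the 16 genes was 1783, 5714 and 2062 RPKM in DTR replicates 1, 2 and 3, against 231 to 310 RPKM in WT libraries. Several members of that list were known to be high from earlier results on these samples, so its count is not independent evidence, and Ddit4 is also on the hypoxia list. Of 4 tested red cell markers Hbb-bs and Hbb-bt fell and none rose (median -2.73). The summed level of the listed red cell genes was 7.06 to 44.3 RPKM in DTR and 76.1 to 107 RPKM in WT libraries. Of 13 endothelial markers the lymphatic vessel gene Lyve1 rose and none fell (median -0.013, with a range of -0.29 to 0.16 over other settings), and their summed level was 20.4 to 30.4 RPKM in DTR and 18.4 to 27.9 RPKM in WT libraries, so the groups overlapped. The calls of Lyve1, Hbb-bs and Hbb-bt were lost when any one WT library was left out. Those of Hbb-bs and Hbb-bt were also lost without DTR replicate 3, and that of Lyve1 with the replicate block. Of 11 lymphocyte markers 4 fell (Nkg7, Cd3d, Cd3g and Cd3e) and none rose (median -2.09), with 41.0 to 157 RPKM in DTR and 267 to 718 RPKM in WT libraries. Without any one WT library the calls of Cd3d, Cd3g and Cd3e were lost and that of Nkg7 held. The call of Cd3e was also lost without any one DTR library, and that of Cd3g without DTR replicate 3. Cd3e passed in 8 of 17 other settings, Cd3g in 13 and Cd3d in 14. Of 11 macrophage markers Cd163 rose and Adgre1 fell (124 to 137 RPKM in DTR and 117 to 137 RPKM in WT libraries). The call of Adgre1 was lost without any one WT library, without DTR replicate 3 and with the replicate block. None of 12 mesenchymal markers passed (131 to 220 RPKM in DTR and 106 to 146 RPKM in WT libraries). Of 12 epithelial markers Krt18 and Cdx1 rose and Vil1 fell, and all 3 calls were lost without any one WT library. Vil1 passed in 9 of 17 other settings, Cdx1 in 13 and Krt18 in 14. The median of the 12 was 0.16, and -0.067 without DTR replicate 2. None of 9 pancreatic acinar markers passed, and their summed level overlapped between the groups (10909 to 34673 RPKM in DTR and 16030 to 45947 RPKM in WT libraries).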

How the data were processed

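RNA-seq of whole small intestine was analysed in 3 DTR and 3 WT libraries, grouped by title. The sample titled WT2 carries the same description as WT1, so columns of these were matched by title. Whether every library came from its own animal is not stated outright. The p-values therefore reflect only how these samples vary, which may be technical. The deposited values are log2 RPKM. STAR, featureCounts, Subread and edgeR and the build mm10 are named in the submitters' processing notes. The deposited normalization factor is a ratio that rescales each library's total. Reversing the log, less a prior count of 0.25, gave whole reads for 100% of values (tolerance 1e-06), which sum to the deposited totals. Replicates differed by far more than sampling noise (chi-square 69.1 to 396 per gene).

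The 15563 genes whose mean log2 RPKM exceeded -2 entered the fit. Groups were tested two-sided in limma (version 3.58.1, R 4.3.3) with trended variances, and p-values were Benjamini-Hochberg adjusted over all of these genes at 0.05. Log2 differences are on the deposited log scale, which includes the prior count. Folds are ratios of RPKM or of mean RPKM. From the log2 differences Adm was 5.52-fold and Ndrg1 5.58-fold higher. All 9 genes passed that filter. RPKM levels are powers of 2 of the deposited values. The fit was tested on simulated data with the spread of the WT libraries in both groups. That test therefore did not cover the wider spread among DTR libraries. Positions are from GENCODE M21 (mm10). The 9 genes, the 16 gene lists and the tests were chosen with earlier results of these data known. Up to 4 genes with the smallest p could be named from each list, or any of a list with under 6 tested, and not every such gene is named. The likeness rule kept genes that are no predicted model, 2 for Hif1a and Epas1 and 1 for each other gene. One listed symbol, Ahsp, had no match. Other settings were added offsets of 0.1 and 1, dropping the filter or raising it to 0, quantile normalization or centring on the median, array weights, a prior made robust or untrended, and a replicate block. Voom was run on the recovered reads with the deposited factors, and each library was left out in turn. Some list genes that entered the counts are not reported here by name.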

Additional observations from a re-analysis of the deposited data

How the results depend on the processing

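All differences are DTR minus WT. Of 153 differences of the 9 genes under other settings, 152 were positive. The exception was Hif1a without DTR replicate 2, at -0.19, while it was 0.90 without DTR replicate 1. The count of the 9 genes that rose was 4 or 5 in every setting that kept all libraries and 1 to 6 when a library was left out, and none fell in any. It was 1 (Car9) without WT replicate 1 or WT replicate 2, where 76 and 79 of all tested genes were higher. Over all tested genes 1485 were higher and 1360 lower with all libraries. Leaving out a WT library gave 76 to 101 higher and 76 to 106 lower calls. Leaving out a DTR library gave 487 to 2861 higher and 523 to 2744 lower calls. Array weights gave 2548 higher and 2314 lower. With array weights 22 of the pathway genes rose and 2 fell, and with the replicate block 13 rose and none fell. The replicate block gave 544 higher and 617 lower and still 4 of the 9 genes higher. Same-numbered DTR and WT libraries shared only a number: their deviations correlated at -0.011, -0.0024 and 0.165, and not every library correlated best with its own number. Of 272 list medians under other settings 258 moved by less than the spread among DTR libraries. No gene of the 9 was below the expression filter, so the fit planned for that case was not needed. The fit without the filter was run among the other settings. With 3 libraries a group, the differences of Egln3, Hif1a and Vegfa could not be told from the spread among DTR libraries. For Bnip3 the groups did not overlap, and it missed the threshold after adjustment (limma unadjusted p = 0.0455, adjusted p = 0.121).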
